A study of Sus scrofa with 12 samples.

Results

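The unannotated isoforms present in every one of 12 libraries from Iberian pig longissimus dorsi (LD), a muscle of the loin, are described here. They were chosen by presence: an intron chain, the ordered set of introns of an assembled transcript, was kept when it shared at least 1 intron with a RefSeq gene of Sscrofa11.1 on the same strand, was neither equal to nor a contiguous part of an annotated chain, and was found in all 12 libraries. Of 103178 distinct spliced chains on the chromosomes 36176 were unannotated isoforms in this sense, and 186 of these (0.514%), in 178 genes by symbol, were found in every library. The genes were protein-coding for 182 isoforms and long non-coding for 4. Unannotated means absent from the RefSeq annotation used here, which is not the Ensembl annotation with which the reads had been mapped.

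Most genes of mammals make several mature RNAs from 1 primary transcript, because transcription can start at alternative promoters, exons can be joined or skipped, a donor (5′) or acceptor (3′) splice site can be moved, introns can be kept and the RNA can end at alternative last exons. Skeletal muscle is known for extensive regulated splicing, especially of contractile, calcium-handling and cytoskeletal genes. An isoform with another start codon, another reading frame or an early stop codon encodes another protein or none.

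The pigs were purebred Iberian males, castrated per the methods of the study, fattened free-range on acorns and grass, and 6 had a high (H) and 6 a low (L) breeding value for intramuscular fat (IMF). The labels give 10.62 to 13.8% IMF in the H group and 1.7 to 2.28% in the L group, and the mean that the methods give for the L group lies above every labelled value of that group, so that these sources differ. Each pig gave 1 library of the whole muscle, so that every value is a mixture of muscle fibres, fat cells, vessels, blood and nerve, and a difference in the number of cells of a type and in the RNA per cell cannot be told apart. The pigs came from several rearing and slaughter batches, and which pig belonged to which batch was not given by the labels or methods. Between 19955 and 22655 spliced transcripts per library lay on chromosomes, and transcripts of at least 200 bases carried 4.86 to 7.72 gigabases of coverage per library. The 12 muscle markers added up to 35249 to 55860 FPKM (fragments per kilobase of transcript, scaled to the mapped fragments of the library) in the H group and 37927 to 49354 FPKM in L pigs. Among them MB, the myoglobin gene, was listed at 0 in all 12 libraries. CKM, with a median of 4056 FPKM, was listed at 0 in 2 libraries, and these zeros enter the muscle sums. The adipocyte markers added up to 54.2 to 149 FPKM in the H group and 32.4 to 84.1 FPKM in L pigs. Most of this sum came from FABP4 and LIPE, with medians of 36.6 and 24.4 FPKM over the 12 libraries. ADIPOQ, PLIN1, CIDEC and LEP had medians of 4.73, 2.19, 1.30 and 0.298 FPKM, and CIDEC was listed at 0 in 1 library and LEP in 5.

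The sequences below, on Sscrofa11.1 and 5′ to 3′ on the strand of the gene, show the kinds of change that the isoforms carry. The first set shows where a new first exon joins the first annotated exon, because in these genes all or part of the start codon of the annotated transcript is missing from its placement on the genome. The last 15 bases of the new exon are in lower case and the first 15 bases after the junction in capitals. The new introns are chr2:77044749-77045147 (minus strand) in RPS15, chr3:78263085-78268165 (minus) in MDH1, chr3:69540490-69546466 (minus) in CCT7, chr14:113699583-113707472 (minus) in ARL3 and chr14:31823453-31826646 (minus) in ARPC3.
RPS15: agagccgacgggatgGCGGAAGTAGAGCAG
MDH1: cagttaccaatcatgTCTGAACCAATCCGA
CCT7: gcttacaagatgatgCCCACACCCGTTATC
ARL3: ctcggcgggaggatgGGCTTACTCTCAATT
ARPC3: gactccaagatgccgGCTTATCACTCTTCC
In RPS15, MDH1 and ARL3 the new exon ends in the start codon atg itself, and in CCT7 and ARPC3 the atg lies 6 bases before the end of the new exon.

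The second set gives whole new internal exons between the annotated start and stop codons, in capitals, with 10 bases of intron on either side in lower case, so that the ag of the acceptor and the gt or gc of the donor can be seen. They lie at chr15:113050210-113050237 (minus strand) in MYL1, chrX:122410993-122411019 (plus) in MTMR1, chr15:76256225-76256257 (plus) in UBR3, chr9:136966748-136966792 (minus) in COBL, chr1:16302630-16302692 (plus) in LATS1, chr6:110729537-110729629 (minus) in SS18 and chr13:192408348-192408452 (minus) in CCT8.
MYL1: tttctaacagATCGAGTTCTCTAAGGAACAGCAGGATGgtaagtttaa
MTMR1: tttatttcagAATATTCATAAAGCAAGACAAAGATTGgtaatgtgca
UBR3: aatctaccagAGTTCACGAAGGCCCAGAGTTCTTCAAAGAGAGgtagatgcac
COBL: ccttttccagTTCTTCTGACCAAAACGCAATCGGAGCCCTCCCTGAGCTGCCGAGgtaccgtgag
LATS1: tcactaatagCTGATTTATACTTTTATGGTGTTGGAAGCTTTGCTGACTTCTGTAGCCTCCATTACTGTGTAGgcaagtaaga
SS18: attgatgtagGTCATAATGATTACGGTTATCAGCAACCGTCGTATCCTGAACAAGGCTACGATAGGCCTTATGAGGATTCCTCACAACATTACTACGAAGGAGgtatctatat
CCT8: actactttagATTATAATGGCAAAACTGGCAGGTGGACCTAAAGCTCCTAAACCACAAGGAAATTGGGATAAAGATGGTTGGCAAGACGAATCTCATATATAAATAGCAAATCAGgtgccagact
The CCT8 exon has 50.5% of its bases equal, without gaps, to the exon that follows it, the highest value but that of UBE2D3 among the 29 new internal exons.

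The third set shows exons joined anew, with the end of the upstream exon in lower case and the start of the downstream exon in capitals. The introns are chr2:76421207-76422202 (minus strand) in JSRP1, where an annotated exon of 47 bases is skipped, chr9:39922385-39924509 (plus) in PTS, where an exon of 23 bases is skipped, and chr13:23869824-23870250 (minus) in XIRP1, where 427 bases inside an annotated coding exon are removed.
JSRP1: cgtggcggctgtgggCCCTACCCTGGACCT
PTS: ggcacaattataaagATTGATCCTGTTACA
XIRP1: gcagcccctagaaagCTGCTGTGACGAGAC

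The fourth set shows acceptor sites, with 20 bases of intron and 10 bases of exon and the last 2 bases of the intron in capitals. They belong to the introns chr6:75478339-75479963 (plus strand) of SZRD1, chr6:168717173-168717694 (minus) of YBX1, chr12:1321243-1321353 (plus) of ACTG1 and chr5:33869128-33869463 (plus) of CCT2.
SZRD1 new acceptor: ctgtgtttgctctttgtcAGcaggaaatcc
SZRD1 annotated acceptor: tgtttgctctttgtcagcAGgaaatccaaa
YBX1 new acceptor: aacgttttcttcttttgcAGtttagtcatc
YBX1 annotated acceptor: tttcttcttttgcagtttAGtcatccacca
ACTG1 new acceptor: gtttctttcgatattttcAGggttctgttc
CCT2 new acceptor: gtgttttttttttaacctTAggtgaggctt
CCT2 annotated acceptor: tgttttttttttaaccttAGgtgaggcttg
In SZRD1 the acceptors lie 3 bases apart, in a run of cag repeats, and in CCT2 the assembled intron ends 1 base before the annotated one, so that its last bases are TA.

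Of the 36176 unannotated isoforms 28277 were found in a single library, 146 in 11 libraries and 186 in all 12. Among annotated chains 3429 of 17865 (19.2%) were found in all 12. The most frequent change in the 186 isoforms was a new first exon, with 58 isoforms (31.2%, and 9.99% of the isoforms found in a single library). Known splice sites joined anew followed with 25 (13.4% and 9.81%), a new acceptor with 20 (10.8% and 8.34%), and a new internal exon and a new last exon with 16 each (8.60% and 2.78%, and 8.60% and 6.44%). A new intron with both sites new was found in 13, a new combination of annotated introns in 11, a new donor in 10 and introns of 2 genes, that of RAB4B, in 1. Several of these events were found in 15 (8.06%, and 24.6% of the isoforms found in a single library). Every other type counts only isoforms with that event alone. Isoforms found in a single library had more introns (median 10, against 6), so that the percentages of single events are not fully alike in the 2 sets. Retained introns made up 17.4% of the isoforms found in a single library (4916) and a single isoform, that of DDX39B, among the 186.

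**Figure D1:**
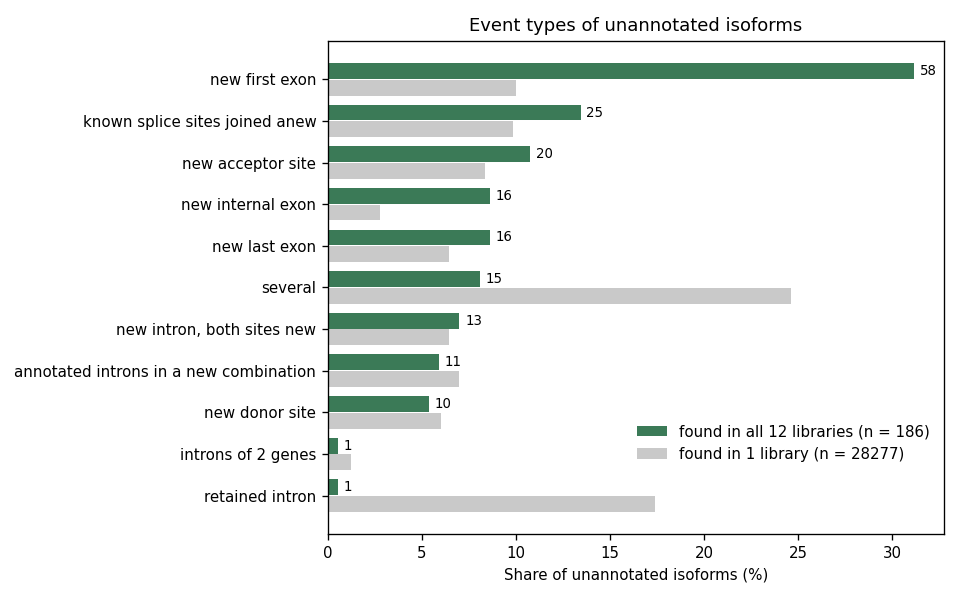
Share of unannotated isoforms (x axis, %) with each event type (y axis), for isoforms found in all 12 libraries and for isoforms found in a single library. Isoforms with several events form a type of their own. New first exons reached 31.2% among the former and 9.99% among the latter, and retained introns 0.538% and 17.4%.

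The isoforms had 2 to 39 introns (median 6), and 143 differed from the annotation by 1 new intron. The longest chain, with 39 introns, was that of UBR3, which encodes a ubiquitin ligase. In 127 isoforms (68.3%) the gene had 1 annotated transcript, whereas this held for 3664 of the 10295 spliced genes above 0 in all libraries (35.6%). Of the 180 coding isoforms with a usable annotated transcript, 90 had a closest transcript that was not placed whole on the genome: in 62 the coding sequence had a gap, in 24 the transcript was partial and in 4 the reading frame was not open. Over 60119 annotated spliced coding transcripts this share was 3.95%. RPS15, MDH1, CCT7, ARL3, ARPC3, RPL27, PKIA, KPNA1 and APOE were partial, and XIRP1, PSMD11, UBR3, CCT8, COBL, MTMR1, SIRT2 and C14H10orf71 had a gap. ARL3, ARPC3, COBL, MTMR1, SIRT2 and, further on, SS18, ACTG1, SZRD1, PTS, TAF15, AGO2, WDR1, ARL16, MOSPD3, RAMP1 and ZC3H10 were chosen after their values were seen.

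**Figure D2:**
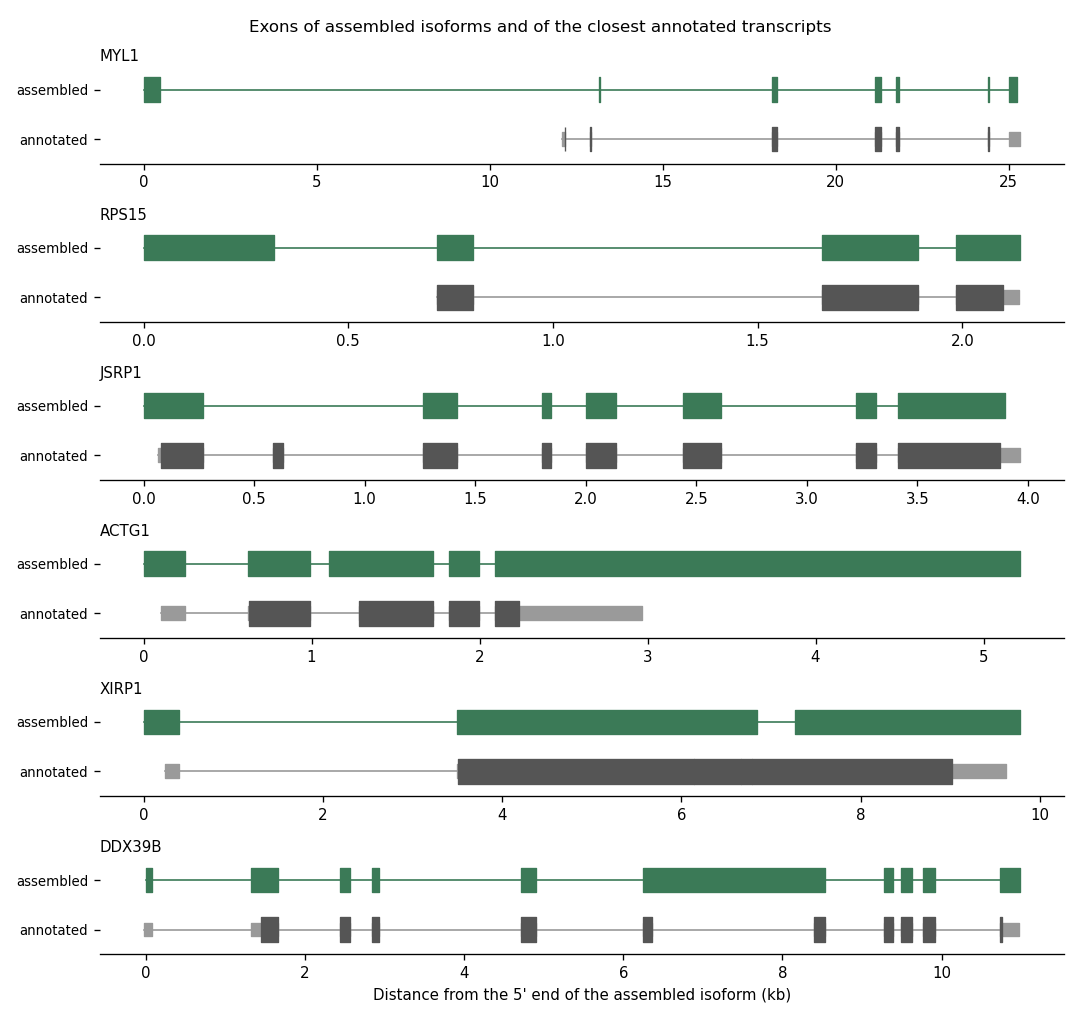
Exons (boxes) of assembled isoforms and of the closest annotated transcript in 6 genes, against the distance from the 5′ end of the assembled isoform (x axis, kb). RPS15 and MYL1 had a first exon outside the annotated transcript, JSRP1 lacked an annotated exon, XIRP1 had an intron inside an annotated exon, ACTG1 another acceptor and DDX39B a retained intron.

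The highest isoform belonged to MYL1, which encodes the essential light chains of fast skeletal myosin and is known to give a longer and a shorter chain from separate promoters. It had a new first exon of 485 bases and the exon of 28 bases printed above. Its level was 1389 FPKM at the lowest, 2209.6 at the median and 2666 at the highest in the H group, and 1599, 1682 and 2692 FPKM in L pigs, so that the groups overlapped. Read from an ATG that lies 126 bases before the end of the new first exon, the isoform gave 192 residues, against 150 in the annotated transcript. It held 28.8% of the FPKM of the gene at the median over the 12 pigs and was the highest transcript of the gene in none of them, and the annotated chain was found in all 12.

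Of the genes for excitation-contraction coupling, the step by which an action potential releases calcium, 2 of 34 had such an isoform. ASPH, which encodes aspartate beta-hydroxylase and, from other exons, the calsequestrin-binding junctin of the sarcoplasmic reticulum, joined annotated introns in a new combination. Its isoform had 79.2, 127 and 161 FPKM (lowest, median and highest) in the H group and 89.4, 123 and 197 FPKM in L pigs, and 95.9% of the FPKM of the gene. Read in frame it reached the annotated stop codon with 210 residues against 212.

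JSRP1, which encodes a junctional protein of the sarcoplasmic reticulum, skipped the exon of 47 bases. Its isoform had 64.1, 98.9 and 117 FPKM in H pigs and 45.0, 96.8 and 131 FPKM in L pigs, with a median share of 100%. The groups overlapped, and no library held the annotated chain. After the skipped exon the frame ended at another stop codon after 93 of 428 residues, 496 bases before the last exon junction.

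XIRP1, the actin-binding Xin protein of myotendinous junctions and of regenerating fibres, was the single gene with an isoform in a list of 49 for the Z-disc, costamere and cytoskeleton, which does not hold every such gene. It lacked 427 bases of an annotated coding exon. The isoform had 36.6, 69.2 and 197 FPKM in H pigs and 33.6, 87.0 and 1122 FPKM in L pigs, where 1 pig, L3, stood far above the rest. Its coefficient of variation over the 12 pigs was 173%, and 63.2% without L3, and its median share was 83.5%. C14H10orf71, outside that list, is the gene of a Z-disc protein also named CEFIP, and it skipped 93 bases before the start codon, with 27.8, 52.1 and 81.5 FPKM in H pigs, 34.9, 60.9 and 90.7 FPKM in L pigs and a share of 69.0%.

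Of 111 genes for ribosomal proteins and translation factors 3 had an isoform, and all 3 encode ribosomal proteins. RPL27, with a new first exon of 78 bases, had 307, 322 and 359.5 FPKM in H pigs and 287, 313 and 365 FPKM in L pigs. RPS15 had 151, 219 and 301 FPKM in H pigs and 164, 244 and 266 FPKM in L pigs. RPL32 had 114, 124 and 133 FPKM in H pigs and 110.4, 123 and 139 FPKM in L pigs. All 3 had a median share of 100% with no annotated chain in any library, and RPL32 and RPL27 had the lowest coefficients of variation named here, 7.53% and 7.81%.

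YBX1, a cold-shock domain protein that packages mRNA, gave a pair of isoforms that shared the acceptor printed above, and the second also skipped an exon of 90 bases. The first had 341, 413 and 487 FPKM in H pigs and 383, 466 and 587 FPKM in L pigs, with a share of 75.8%. The second had 123, 141 and 172 FPKM in H pigs and 112, 137 and 160.4 FPKM in L pigs, with a share of 24.2%. Over the 12 pigs the share of the first ran from 72.9 to 82.6% and that of the second from 17.4 to 27.1%. CYSTM1, a small membrane protein, joined annotated introns in a new combination and held 52.2% of its gene at the median and 47.4% at the lowest.

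The subunits CCT2, CCT7 and CCT8 belong to the chaperonin that folds actin and tubulin. CCT2 had 34.4, 39.2 and 47.0 FPKM in H pigs and 26.3, 43.5 and 105 FPKM in L pigs. CCT7 had 37.7, 43.3 and 50.9 FPKM and 41.4, 49.5 and 83.1 FPKM. CCT8 had 25.2, 28.9 and 51.8 FPKM and 20.2, 30.3 and 77.6 FPKM, with 71.7% of the gene. In all 3 the highest L value came from L3, and the groups overlapped.

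In the list of proteasome, ubiquitin and chaperone genes, which holds none of these 3 subunits, 2 of 54 genes had an isoform. PSMD11, a lid subunit of the proteasome, lost 118 bases after the stop codon, and its isoform had 65.1, 87.9 and 103 FPKM in H pigs and 90.8, 102 and 154 FPKM in L pigs. UBE2D3, a ubiquitin-conjugating enzyme, had 34.6, 56.3 and 72.2 FPKM and 51.5, 84.2 and 131 FPKM, with 57.5% of the gene. The ligase UBR3 had 17.8, 32.5 and 63.4 FPKM and 19.3, 37.7 and 56.9 FPKM, with 78.5% of the gene.

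MDH1, the malate dehydrogenase of the cytosol, was the single gene of 42 in the list of mitochondrial transport and citrate cycle, and had 76.7, 97.5 and 191 FPKM in H pigs and 62.6, 99.4 and 116 FPKM in L pigs. PKIA, an inhibitor of protein kinase A with a new first exon of 125 bases, had 72.9, 103 and 119.5 FPKM and 66.5, 127 and 196 FPKM. KPNA1, an importin alpha with a new first exon of 365 bases, had 33.0, 43.4 and 59.3 FPKM and 43.2, 48.6 and 79.3 FPKM. NFIX, a transcription factor of muscle development, and PITX3, a homeobox factor, were the 2 of 47 genes for muscle transcription. NFIX skipped 123 bases, read 400 against 441 residues in frame, and had 32.0, 51.3 and 71.1 FPKM and 47.6, 66.6 and 90.0 FPKM. PITX3 skipped 58 bases before the start codon and had 1.36, 3.96 and 7.09 FPKM and 1.24, 2.95 and 4.28 FPKM. No member of the lists for splicing factors (67 genes above 0 in all libraries), oxidative phosphorylation (65), glycolysis (32), lipid metabolism (37) or extracellular matrix (23) had an isoform of this kind. The lists are not complete: DDX39B and APOE, for example, stood in none of them, and 66 of the 96 genes for oxidative phosphorylation were found by symbol in the annotation. AGPAT1, GPAT4, LCLAT1, SCARB1, LTBP4 and TIMP1, named for this reason alone, also had such an isoform and stood outside the lipid and matrix lists. The empty lists thus do not mean that lipid or matrix genes lacked isoforms of this kind. Over all lists 12 of 567 genes above 0 in all libraries had an isoform (2.12%), against 179 of all 10456 such genes (1.71%).

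**Figure D3:**
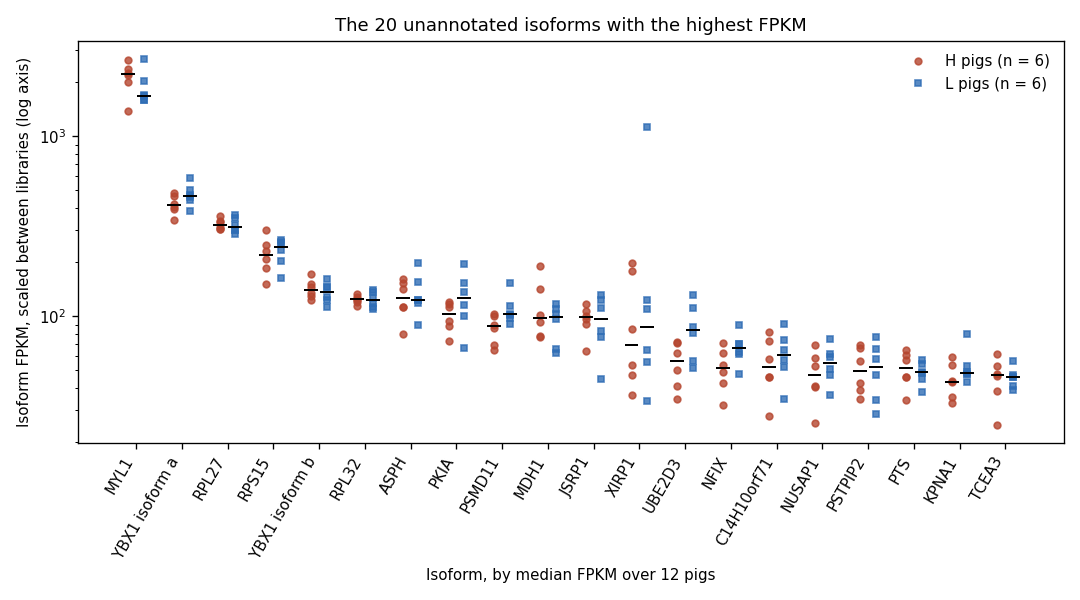
Isoform FPKM in each pig (y axis, log scale, scaled between libraries) for the 20 isoforms with the highest median, in order of the median over 12 pigs (x axis), with H and L pigs marked apart. MYL1 lies at 1389 FPKM or above in all 12 pigs, and 1 L pig lies at 1122 FPKM for XIRP1.

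Over the 186 isoforms the median FPKM was 5.23, from 0.639 (ZNF41) to 2020.0 (MYL1). At least 10 FPKM was reached by 68, at least 100 FPKM by 8, and 9 stayed under 1 FPKM. The median share of the gene was 74.2%, with 129 isoforms at 50% or more, 59 at 100% and 7 under 20%. In every library the smallest isoform fraction within a locus that Cufflinks listed lay just above 0.1. Rarer isoforms of a locus may thus be listed as absent. A share of 100% or an absent annotated chain therefore does not mean that no other isoform was made. How far this floor raised the shares was not tested. In 24 isoforms the share was 100% in each library, among them APOE, CCT2, PSTPIP2, ARL3 and ARPC3. Of the 59 with a median of 100%, 55 belonged to genes with no annotated chain in any library. The isoform was the highest transcript of its gene in all 12 pigs for 89 and in none for 18, and the annotated chain was absent from all libraries for 108, found in some for 52 and in all 12 for 26. By event the median share was 86.3% for new first exons, 99.0% for new last exons, 59.6% for sites joined anew, 66.2% for new acceptors, 67.1% for new donors and 51.2% for new internal exons. The lowest median share, 0.163%, was that of ZC3H10. The gene sum can also hold unspliced transcripts and other assembled loci over the exons of the gene, so that a share can lie under the floor within a locus.

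**Figure D4:**
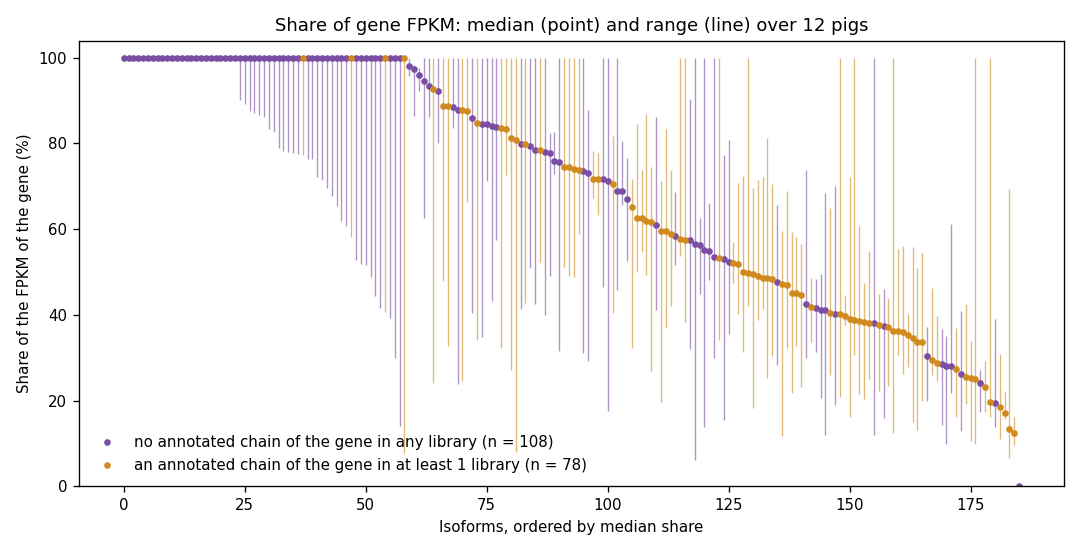
Share of the FPKM of the gene (y axis, %) for each of the 186 isoforms in order of the median (x axis), with the median over 12 pigs as a point and the lowest to highest pig as a line. The medians run from 0.163% to 100%, with 59 at 100%.

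New first exons, 67 in all, were 60 to 5127 bases long (median 296) with 65.6% G and C, and 50 lay before the start codon. In 7 genes with a partial annotated transcript whose own frame was not open from its start on the genome, the frame could be read back to an ATG in the new exon. It gave 145 residues in RPS15, 334 in MDH1, 182 in ARL3, 543 in CCT7 and 178 in ARPC3, and 602 in TAF15 and 860 in AGO2. New last exons, 17 in all, were 142 to 9749 bases long with 39.3% G and C, and 12 lay after the stop codon. PSTPIP2, an actin-binding F-BAR protein, ended in one of 1605 bases with 34.7, 49.4 and 69.1 FPKM in H pigs and 28.5, 52.5 and 76.3 FPKM in L pigs, and read the annotated 334 residues. NUSAP1, a protein of the mitotic spindle, had a short chain of 2 introns with a last exon of 7493 bases that did not reach the annotated start codon, at 25.4, 47.0 and 69.0 FPKM and 36.5, 55.3 and 74.4 FPKM.

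New internal exons, 29 in 25 isoforms, were 27 to 183 bases long (median 93) with 48.1% G and C, and 23 lay between the start and stop codons. Of these 23, 13 were multiples of 3 in length, and of all 29, 8 had at most 50 bases. MTMR1, a myotubularin-related phosphatase known for alternative exons in muscle, carried its 27 bases at 5.17, 8.27 and 14.2 FPKM in H pigs and 7.18, 9.46 and 12.5 FPKM in L pigs, and held 78.5% of the gene. COBL, an actin nucleator, carried exons of 45 and 75 bases at 13.0, 20.8 and 23.7 FPKM and 13.9, 16.6 and 28.0 FPKM, with 93.5% of the gene. Its isoform also ended in a new last exon of 1465 bases, which lay between the annotated start and stop codons. SS18, a subunit of a chromatin remodelling complex, gained 93 bases and read 418 against 387 residues, at 0.484, 0.951 and 1.57 FPKM and 0.532, 0.728 and 1.06 FPKM. In LATS1, a kinase of the Hippo pathway, the exon of 63 bases is a multiple of 3 but the frame ended after 687 of 1127 residues.

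All 25 isoforms with known sites joined anew skipped an exon, 24 of them a single one, and 8 skipped a multiple of 3 bases. PTS, an enzyme of tetrahydrobiopterin synthesis, skipped 23 bases and read 56 of 146 residues, at 34.4, 51.6 and 64.9 FPKM in H pigs and 37.8, 48.8 and 56.9 FPKM in L pigs. The annotated PTS chain was found in all 12 pigs, and the skipped form held 40.5% of the gene. SIRT2, a deacetylase, skipped 47 bases with a share of 71.7%. The new acceptor of ACTG1, cytoplasmic gamma-actin, gave 131 of 375 residues and a share of 34.6%, and that of SZRD1 gave 152 against 151 residues and 58.4%.

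The annotated reading frame could be followed in 80 isoforms, of which 45 reached the annotated stop codon, 33 with the annotated length, and 35 another stop codon. In 25 of these 35 the stop lay more than 50 bases before the last junction, a place from which RNAs are often degraded. DDX39B, an RNA helicase of splicing and mRNA export, retained an intron and read 317 of 428 residues, with the stop 2353 bases before the last junction. GPR157, an orphan receptor, read 141 of 336 residues, and GPX8, a peroxidase of the endoplasmic reticulum, 19 of 90.

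Of the 215 new introns, counted in each isoform that carries them, 191 had GT-AG ends, 3 GC-AG ends (LATS1, MOSPD3 and RAMP1) and 21 other ends, so that 90.2% were standard. An intron shared by both isoforms of a gene, as in VARS and MAP3K7CL among the 21, is thus counted in each. The share was alike in the new introns of unannotated isoforms found in 1 library (91.0%), in 2 to 5 (89.9%) and in 6 to 11 libraries (90.3%), and was 98.4% over all 170765 distinct introns, annotated ones included. Of the 21, 17 lay within 10 bases of an annotated intron at both ends, 8 with the annotated donor and an acceptor 1 base before the annotated one, as in CCT2. In 3, TCEA3, WDR1 and ARL16, removing the assembled or the annotated intron gives the same RNA. RPL32 had TT at both ends of an intron of 132 bases that can be moved by 41 bases without changing the RNA, with a tandem copy of at least 20 bases on the genome. The isoform of TCEA3, a transcription elongation factor, thus differs from the annotation only in where the intron was placed, and had 25.0, 47.4 and 61.9 FPKM in H pigs and 38.9, 45.8 and 56.7 FPKM in L pigs.

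The FPKM of the isoforms varied between pigs with a median coefficient of variation of 31.0%, from 7.53 to 173%, against 24.8% for 3419 annotated chains in all 12 libraries, whose median FPKM was 6.57. The median half-width of the bounds that Cufflinks gave was 8.40%. The median share per pig lay between 66.1 and 76.4%. The share of SEPT7, a cytoskeletal septin, ran from 14.0 to 100% in the H group and from 19.6 to 100% in the L group, that of C14H10orf71 from 45.8 to 100% over all pigs and that of XIRP1 from 72.7 to 100%.

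Whether the isoforms differed between the H and L groups was tested with limma, first on log2(FPKM + 0.5) over 11300 chains. The second fit took the log2 ratio of the isoform to the rest of its gene over 10196 chains, with 0.5 FPKM added to each. Where the rest of the gene was 0, the size of this ratio depends on the amount added. Of all chains 7 (0.0619%) and 6 (0.0588%) were called at an adjusted p under 0.1. Of the 186 isoforms none was called, and the smallest adjusted p in limma was 0.711. At an unadjusted p under 0.05 there were 13 (6.99%), against 5.49% of all chains, with 3 higher in H (1.61%, against 2.24%) and 10 lower (5.38%, against 3.25%). Quantile normalization turned this balance, with 3 higher and 2 lower, and over all chains 361 higher and 258 lower instead of 253 and 367. For the share 162 could be tested, none was called, the smallest adjusted p in limma was 0.757, and 10 (6.17%, against 5.36%) had an unadjusted p under 0.05, 5 higher in H (against 2.01% of all chains) and 5 lower (against 3.34%). The other 24 had 100% in every library.

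**Figure D5:**
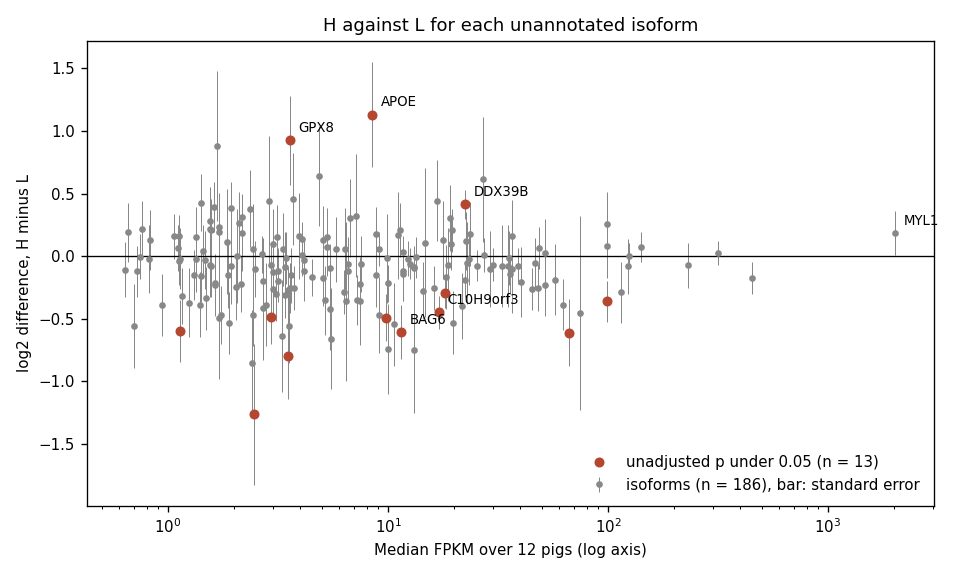
Difference between groups (y axis, log2, H minus L) for each isoform against its median FPKM over 12 pigs (x axis, log scale), with isoforms at an unadjusted p under 0.05 marked. None passed an adjusted p of 0.1, and 3 of the 13 marked isoforms lie above 0.

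The groups did not overlap in 2 isoforms (1.08%, against 0.425% of all chains). The DDX39B isoform with the retained intron had 23.8, 25.0 and 26.1 FPKM in H pigs and 16.1, 19.1 and 20.9 FPKM in L pigs, a log2 difference of 0.41 ± 0.11 (SE, adjusted p = 0.711, limma). All 6 H pigs lay above all 6 L pigs. The isoform was named for its retained intron and for being among the 4 with the smallest p in the FPKM fit. Its share also did not overlap, with 38.6, 42.0 and 45.0% in the H group and 22.1, 32.8 and 36.5% in the L group. The log2 ratio to the rest of the gene differed by 0.65 ± 0.33 (H minus L, adjusted p = 0.889, limma). C10H9orf3, which encodes an aminopeptidase, had a new first exon and 11.6, 15.1 and 16.4 FPKM in H pigs against 17.8, 19.5 and 23.8 FPKM in L pigs, a log2 difference of -0.45 ± 0.13 (adjusted p = 0.770, limma), with each H pig below each L pig. The summed erythroid markers were 84.6, 233 and 298 FPKM in H pigs and 73.2, 92.0 and 160.4 FPKM in L pigs, with overlap. This sum was nearly all HBB, with a median of 157 FPKM over the 12 libraries. ALAS2, AHSP and HBM had medians of 1.03, 0.580 and 0.778 FPKM. The part of these markers in the DDX39B and C10H9orf3 values was not tested.

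Among the isoforms named by the rule 7 more had an unadjusted p under 0.05 without passing the adjustment, APOE and GPX8 with the higher level in H and the others with the lower. APOE, a lipoprotein component made by macrophages and fat cells among others, had 5.25, 18.7 and 31.0 FPKM in H pigs and 3.32, 6.37 and 13.4 FPKM in L pigs, a log2 difference of 1.13 ± 0.42 (adjusted p = 0.847, limma). The groups overlapped, the summed adipocyte markers were 54.2, 87.7 and 149 FPKM against 32.4, 68.4 and 84.1 FPKM, the summed macrophage markers were 8.05 to 14.2 FPKM against 4.99 to 15.7 FPKM with CD68 at 0, and their part in the APOE values was not tested. BAG6, a chaperone of membrane proteins, had 6.59, 10.5 and 11.6 FPKM against 10.6, 14.4 and 21.5 FPKM, a log2 difference of -0.61 ± 0.21 (adjusted p = 0.787, limma). PSMD11 differed by -0.36 ± 0.16 (adjusted p = 0.851, limma) and UBE2D3 by -0.61 ± 0.27 (adjusted p = 0.851, limma), both with overlapping groups. GPX8 had 1.73, 5.22 and 7.81 FPKM in H pigs and 1.08, 2.45 and 3.94 FPKM in L pigs (log2 difference 0.92 ± 0.35, adjusted p = 0.850, limma). LATS1 had 1.17, 2.64 and 3.12 FPKM against 2.73, 3.49 and 4.04 FPKM (-0.49 ± 0.22, adjusted p = 0.851, limma), and FBRSL1 8.07, 8.95 and 9.85 FPKM against 8.60, 13.5 and 17.9 FPKM (-0.49 ± 0.19, adjusted p = 0.848, limma), again with overlapping groups.

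For the share, ZNF423, a zinc finger factor known for preadipocyte commitment, had 32.6, 63.6 and 100% of the gene in the H group and 88.6, 100 and 100% in the L group. Its log2 ratio to the rest of the gene differed by -1.78 ± 0.57 (H minus L, adjusted p = 0.757, limma). FBRSL1 had 51.2, 69.9 and 75.7% against 73.5, 91.0 and 100%, a difference in the log2 ratio of -2.40 ± 0.77 (adjusted p = 0.757, limma). LATS1 had 42.8, 63.3 and 100% against 72.2, 100 and 100%, a difference in the log2 ratio of -1.69 ± 0.59 (adjusted p = 0.817, limma). GPX8 moved the other way, with 28.4, 47.8 and 51.0% against 13.2, 27.2 and 36.1% (1.13 ± 0.40, adjusted p = 0.826, limma). The groups overlapped in all 4. In FPKM, the MYL1 isoform differed by 0.18 ± 0.18 (log2, H minus L, adjusted p = 0.852, limma). Its share was 24.5 to 34.1% in the H group and 25.8 to 39.7% in the L group.

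Presence in all 12 libraries was the threshold of the choice. Just inside it were SPATA5L1, with 0.123 FPKM in its lowest library, and ZNF41, with 0.197 FPKM. Just outside, in 11 libraries, were RPS24, with a new acceptor and a median of 406 FPKM but missing in L5, and SLC25A3, with a new internal exon and a median of 377 FPKM but missing in H5. Of the 146 isoforms missing in a single library 23 were missing in H2, 21 in L5 and 5 to 14 in each of the others.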

How the data were processed

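Per the labels, total RNA of LD was sequenced as paired-end reads of 76 bp with 1 library per pig. The authors trimmed the reads with Trim Galore, checked them with FastQC, mapped them with TopHat 2.1.0 to Sscrofa11.1 with an Ensembl annotation and assembled each library alone with Cufflinks 2.2.1. The deposited files give, per assembled transcript, its exons, coverage and FPKM. Strandedness of the counting was not given in the sources used here, and FPKM carry no read counts, so depth was taken from coverage. The supplement of the study lists the reads of each pig, which were not used here.

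Introns of each transcript were compared with the Sscrofa11.1 RefSeq annotation, closing exon gaps under 20 bases (2281 annotated transcripts). Of the distinct introns in the files 98.4% had standard bases on the genome used. Libraries were brought to a common scale with the median of their gene FPKM ratios, taken over 10456 genes listed above 0 throughout. The gene sum took transcripts of at least 200 bases, because shorter ones carried 98.6 to 99.5% of the summed FPKM. H and L were compared with limma 3.58.1 (R 4.3.3, variance trend, two-sided, Benjamini-Hochberg over all chains found in at least 6 libraries with a group mean of at least 0.5 FPKM, called at 0.1). The fit was tested on simulated data with known changes and missed most of them at both sizes tried, so that no call does not mean no difference. The changed chains were drawn from all chains tested, many of them not found in every library. The part missed among the isoforms described here may thus differ. The pigs are separate animals with 1 library each, so the p-values rest on the spread between the pigs of a group. That spread also holds any differences between batches and between libraries.

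Named isoforms were the 10 highest by FPKM, the 10 highest by share among those of at least 5 FPKM, the 3 highest per gene list, the 2 highest per event, the 3 highest and 3 lowest SD of the log2 ratio of isoform to remainder (at least 5 FPKM), the 4 smallest p in each fit, and the 2 just inside and 2 just outside the rule, and others are named where said. The isoforms and lists were chosen with earlier results of these data known. Alternatives covered the pseudocount (0.1 and 1), the minimum (none and 2 FPKM), scaling, the variance trend, the individual number as a block, the make-up of the gene sum, the choice of chains and leaving out each pig. Samples with the same individual number did not deviate together (correlations from -0.030 to 0.028). Gene names and sequences are from RefSeq on Sscrofa11.1, Python 3.11.15 and numpy 2.4.6 were used.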

Additional observations from a re-analysis of the deposited data

Results flagged for a closer look

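Single pigs stood apart from the other 5 of their group in 21 of 156 groups of values of named isoforms, by Dixon's test at 95%. In 10 of the 21 the other 5 pigs were all at a share of 100%, where any lower value passes that test whatever its size, so that the 1 in 20 groups that chance gives does not apply to them, and 11 were of the other kind. L3 gave 6 of the high values: 105 FPKM for CCT2 (others 26.3 to 51.8), 83.1 for CCT7 (41.4 to 54.6), 77.6 for CCT8 (20.2 to 37.4), 79.3 for KPNA1 (43.2 to 52.9), 154 for PSMD11 (90.8 to 114) and 1122 for XIRP1 (33.6 to 123). The coefficient of variation of XIRP1 fell from 173% to 63.2% without L3.

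Further high FPKM were 51.8 for CCT8 in H5 (others 25.2 to 31.3) and 42.1 for GPR157 in L4 (14.9 to 24.5). The PKIA share was 100% in H1 (others 86.8 to 88.7%).

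In 10 cases a pig had less than 100% of the gene where its 5 fellows had 100%: GPR157 62.0% in H6, JSRP1 44.5% in L3, MDH1 60.8% in H6 and 71.6% in L2, NDUFAF8 82.7% in H3 and 90.1% in L1, PITX3 77.4% in L3, PSMD11 58.1% in L6, TCEA3 76.3% in L2 and SPATA5L1 67.3% in L2. NFIX had 40.5% in H4 against 69.5 to 81.8%, and GPX8 28.4% in H5 against 42.9 to 51.0%.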

How the results depend on the processing

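No isoform was called for FPKM or share under any of the 22 alternatives of each fit, and the smallest adjusted p ranged from 0.467 to 0.855 and from 0.472 to 0.896. Isoforms at an unadjusted p under 0.05 ranged from 5 (quantile normalization) to 23 (chains in all 12 libraries tested alone) instead of 13, with 8 each without L3 and without L4 and 7 without H4 and L3, and from 5 to 12 instead of 10 for the share. Over all chains the calls ranged from 0 to 11 and from 0 to 10. With the individual number as a replicate block 0 isoforms were called in either fit and 9 and 9 had an unadjusted p under 0.05, and 1 of the 6 numbers was its own best match. Uncalled differences turned sign in 47 of 856 values for FPKM and 28 of 698 for the share.

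The 186 isoforms became 90 where the closest annotated transcript had to be placed whole on the genome and 287 where annotated gaps were not closed, 2 settings chosen after seeing the data. The count was 140 with at least 1 FPKM in every library, 173 with at least 0.5 FPKM, 166 with standard new introns, and 191 to 209 with 1 pig left out. The median share of 74.2% became 79.5% over spliced transcripts only, 77.6% from coverage times length, and 71.8 to 75.6% with 1 pig left out.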
